A study of Mus musculus with 6 samples.

Results

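The lysosome is the acidic compartment in which cells break down protein, sugar chains and lipids taken up from outside or delivered by autophagy. Its enzymes, the hydrolases, include the cathepsins (proteases), glycosidases, sulfatases and lipases. They work at the low pH that the vacuolar ATPase (V-ATPase), a rotary proton pump in the membrane, maintains, and the transcription factors TFEB and TFE3 are known to switch many of these genes on together. Macrophages are rich in lysosomes, while resting T cells hold fewer, and cytotoxic T cells use a related organelle to store granzymes and perforin.

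The genes described are 47 that encode lysosomal hydrolases and their partners, lysosomal membrane proteins, V-ATPase subunits and the factors TFEB and TFE3, taken from a written list by symbol. All 47 were found once each among the 26181 genes of the table. They fall into 10 cathepsins with legumain, 21 other hydrolases and partner proteins, 8 membrane proteins, 2 transcription factors and 6 V-ATPase proteins.

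RNA was sequenced from primary CD8+ T cells of the spleen of wild-type C57BL/6 mice that were 6 weeks old when the diets began. They were fed for 7 weeks, either on the control diet that the labels call ND or on CDAHFD. CDAHFD stands for a high-fat diet that lacks choline and has defined amino acids, and the labels name it as a model of steatohepatitis (MASH). Each diet had 3 libraries, with 25314988 to 28067393 reads per library. The labels do not say that the libraries of a diet came from separate animals, so each p-value is set against a library-to-library spread that may be technical. The method of isolation and the purity of the cells are not given in the sources used here. Transcripts that define CD8+ T cells were abundant in all 6 libraries, with Cd8a at 27699 to 32995 normalised counts. Transcripts of other cells were present too. The summed level of 16 macrophage markers was 19872 to 22002 normalised counts in ND libraries and 173005 to 190323 in CDAHFD libraries, all 16 rose, and none of them was at 0. One of the 16, Vsig4, reached the minimum for testing (a mean of 10 normalised counts) only through its CDAHFD libraries, and without it 15 of 15 rose. Csf1r, the receptor that defines macrophages, stood at 3194 to 3493 normalised counts under ND and 26027 to 27563 under CDAHFD, and Adgre1 averaged 1023 and 6285. The 11 markers of CD8 T cells summed to 150473 to 155438 in ND libraries and 122881 to 128325 in CDAHFD libraries, and 9 of them fell. Over all genes tested, 24.6% rose and 22.5% fell. Neutrophil markers rose in 9 of 11 cases (sums of 3763 to 3823 and 11138 to 12408). Erythroid markers rose in 8 of 8 (sums of 903 to 943 and 9017 to 9295). Plasma cell markers rose in 4 of 5 tested (sums of 2554 to 2673 and 35342 to 36545 over the 6 listed). Markers of conventional dendritic cells fell in 6 of 8 cases and rose in 0. Those of plasmacytoid dendritic cells fell in 4 of 6 (1 rose), and those of B cells in 7 of 8 (1 rose). Monocyte markers (3 rose and 2 fell of 6), NK cell markers (1 and 1 of 5), CD4 T cell markers (2 and 1 of 3) and markers of endothelium and platelets (2 and 1 of 6 tested) were mixed. In such bulk samples, fewer cells of a type and less RNA per cell cannot be told apart. The part of these other cells in each lysosomal result was not tested.

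Lysosomal transcripts were mostly higher in the CDAHFD libraries. Among the 47 genes there were 34 rises and 1 fall, and 12 genes missed the threshold (limma, Benjamini-Hochberg adjusted p under 0.05 over all 15819 genes tested). Over all genes tested, 24.6% rose and 22.5% fell by the same rule, 47.1% together. On whole reads recovered from the table, edgeR called 36 of the 47 genes, with 35 higher and 1 lower, against 47.6% of all genes (24.7% higher and 22.9% lower). DESeq2 called 34, with 33 higher and 1 lower, against 42.7% of all genes (23.1% higher and 19.6% lower). The median log2 fold change was 0.43 for the 47 genes and -0.01 for all genes tested. A rise of 2-fold or more was found for 10 of the 47 genes, against 9.43% of all genes. The CDAHFD libraries stood wholly above those of ND for 38 of the 47 genes and wholly below for 1, against 27.8% and 26.5% of all genes, 54.3% together. Together the 47 genes took up 0.702% ± 0.0079 of all normalised counts in ND and 1.23% ± 0.026 in CDAHFD libraries (SD, n = 3 per diet). Without Ctsb, the largest rise, the shares were 0.667% and 1.02%. All 47 genes had a mean of at least 10 normalised counts, the minimum for testing, but Atp6v0d2 reached it only through its CDAHFD libraries. Without that gene, 33 of 46 rose, 9 of them by 2-fold or more, and the CDAHFD libraries stood wholly above those of ND for 37.

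**Figure D1:**
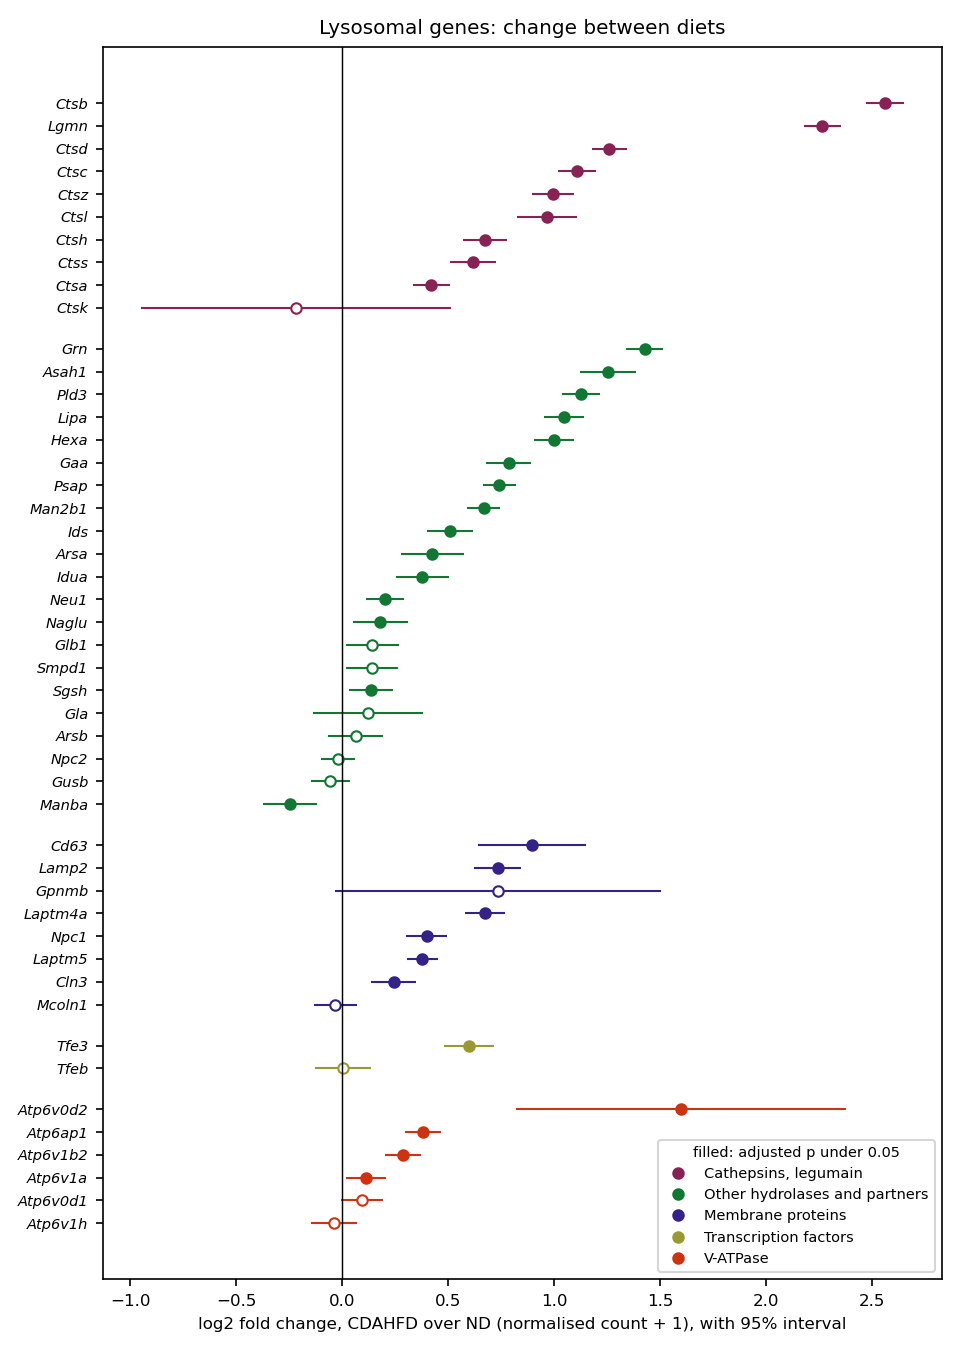
Log2 fold change of CDAHFD over ND for the 47 lysosomal genes by role, on the log2(normalised count + 1) scale. Points are limma estimates, bars are 95% intervals, and filled points passed the test. The group of cathepsins and legumain holds both the largest rises, Ctsb at 2.56 and Lgmn at 2.27. V-ATPase genes other than Atp6v0d2 lie between -0.04 and 0.38.

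Short stretches of promoter DNA, which the list did not use directly, were searched for one element. TFEB and TFE3 bind an E-box, a palindrome of the letters CACGTG, and a longer form described in lysosomal promoters is called the CLEAR element. Because it was described in such promoters, a higher share among lysosomal genes is not an independent result. RefSeq promoter windows of 300 bases (GRCm38.p6, from 250 before to 50 after a start site) were given for 40 of the 47 genes. The 7 letters TCACGTG, read on both strands, occurred in the windows of 13 of these 40 genes (32.5%), and in 4.29% of 27025 genes with a window or 6.84% of those also tested here. Among 86 further lysosomal genes the share was 19.8%. None of the 10 macrophage markers with a window held it, a set too small to compare with these shares. The 13 stretches are shown because they hold the shared letters in genes that rose steeply, rose little or did not pass the test. Each line runs 5′ to 3′ on the strand of the gene, with 10 bases on each side, and capitals mark the match, which in Sgsh reads as the reverse complement. The lines are ordered from the largest to the smallest log2 fold change.
Lgmn: ggaatgtctgTCACGTGgtccatttta
Ctsd: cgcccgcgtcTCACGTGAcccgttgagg
Gaa: ttctgtgcgaTCACGTGtttgactctg
Arsa: caactcagtgTCACGTGttgtctgctc
Ctsa: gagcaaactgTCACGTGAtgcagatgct
Cln3: acgggtactgTCACGTGAcccccaacct
Naglu: aaccttcaggTCACGTGgcccgaggtc
Glb1: tgcttctgagTCACGTGgcctacagag
Sgsh: gcctgccgtgCACGTGAccgtggggag
Gla: aagcgattgaTCACGTGAgcatctacgt
Atp6v1a: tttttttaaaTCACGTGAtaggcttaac
Atp6v0d1: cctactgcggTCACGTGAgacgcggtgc
Mcoln1: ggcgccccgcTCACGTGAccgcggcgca

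The Ctsd stretch lies on the minus strand at chr7:142387909-142387936, with its match 99 to 92 bases before the start site. The Lgmn stretch lies on the minus strand at chr12:102439126-102439152, before the second of 2 annotated start sites. In Mcoln1 (plus strand, chr8:3500463-3500490) the match ended 39 bases before the start site. In Cln3 (minus strand, chr7:126583341-126583368) it lay 122 to 115 bases before the start site of 1 of its 2 windows. These start sites are those of the RefSeq windows. The Ctsd, Lgmn, Mcoln1 and Cln3 stretches lie inside the gene spans of GENCODE M21, which begin further upstream. In 7 of the 13 stretches the match extended to the 8-letter palindrome TCACGTGA, whose letters contain TCACGTG and CACGTG. Of the 40 genes 17.5% held this 8-letter form. Against this stood 1.12% of all genes with a window, 2.17% of those also tested and 9.30% of the further lysosomal genes. The longest form counted, a 10-letter palindrome, was found in 1 of the 40 genes (2.5%), Cln3. Its share was 0.37% of all genes with a window, 0.78% of those tested and 1.16% of the further lysosomal genes. With 1 match, an excess of the 10-letter form cannot be judged. The higher shares are those of the shorter strings and do not count the full CLEAR element. A related sequence, TCATGTGA, was found in 3 of the 40 genes, against 1.15% of all genes. These are matches of letters and not measured binding, and a window without the letters says nothing more than that.

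Genes with the match had a lower median change than genes without. With it, 9 of 13 genes rose, 0 fell and 4 missed the threshold, at a median log2 fold change of 0.18 and a range from -0.03 (Mcoln1) to 2.27 (Lgmn). With a window and no match, 19 of 27 rose, 1 fell and 7 missed it, at a median of 0.62 and a range from -0.24 to 1.43. The difference between these medians was not tested. Promoter windows for Ctsb, Ctsh, Asah1, Npc1, Atp6v0d2, Atp6v1b2 and Atp6v1h were not analysed here.

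**Figure D2:**
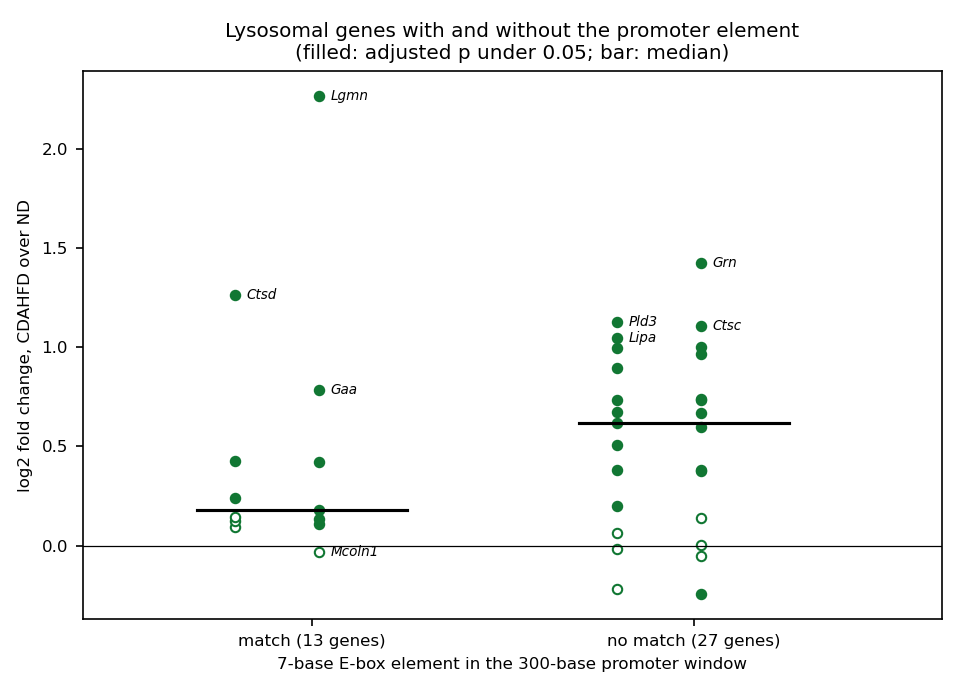
Log2 fold change (vertical axis) of the 40 lysosomal genes with a promoter window, split by whether the window holds the 7-base E-box element. Points are genes, filled where the test was passed, and bars are medians, 0.18 for 13 genes with a match and 0.62 for 27 genes without.

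Cathepsins and legumain rose as a group, in 9 of 10 cases (24.6% of all genes rose), with a median log2 fold change of 0.98. Their summed level went from 34235 ± 1311 to 104507 ± 4691 normalised counts. Ctsb (chromosome 14, 63122462 to 63145923 in mm10) encodes cathepsin B, a cysteine protease. It had 8978, 9765 and 8900.1 normalised counts in the ND libraries and 57298, 51595 and 54485 in the CDAHFD libraries. Every CDAHFD library was more than 5-fold above every ND library. The log2 fold change was 2.56 (SE 0.04, limma adjusted p = 2.89e-26). Lgmn (chromosome 12, 102394084 to 102439813), the asparagine-specific protease legumain that processes cathepsins, had 1346, 1353 and 1271 against 6413, 6256 and 6435 normalised counts. Its libraries stood in 2 tight, separate sets, with a log2 fold change of 2.27 (standard error 0.04, limma adjusted p = 5.37e-26). Both values lay within the range of the macrophage markers, which ran from 1.57 (Timd4) to 5.35 (Marco) with a median of 3.00. They also lay within other marker ranges, among them neutrophil (0.29 to 2.76), erythroid (1.64 to 3.79) and plasma cell markers (0.11 to 4.81). Which cells these transcripts came from was not tested.

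The other cathepsins moved less. Ctsd (chromosome 7, 142375911 to 142388038), an aspartic protease, had 5138, 5618 and 5297 normalised counts in ND and 12978, 12406 and 13107 in CDAHFD libraries. The diets did not overlap, and the log2 fold change was 1.26 (SE 0.04, limma adjusted p = 2.27e-20). Ctsc, which activates granzymes by trimming their ends, rose from 3764 ± 67.9 to 8116 ± 526 normalised counts. Ctsz, a carboxypeptidase, rose from 2330.0, 2337 and 2133 to 4867, 4328 and 4368, and Ctsl from 479.6 ± 27.9 to 937 ± 57.5. Ctsh, an aminopeptidase, rose from 1414 ± 48.7 to 2259 ± 119. Ctss, which trims the invariant chain of MHC class II, had 5173, 5689 and 5233 normalised counts in ND libraries and 9042, 7756 and 7970.3 in CDAHFD libraries. Its log2 fold change was 0.62 (SE 0.05, limma adjusted p = 3.77e-09). Ctsa, a serine carboxypeptidase that shields galactosidase and neuraminidase from breakdown, rose from 5039 ± 252 to 6740.5 ± 185.

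Ctsk, the collagen-cleaving cathepsin of osteoclasts, was the one member of this group that did not pass the test. It had 18.8, 20.4 and 18.9 normalised counts in ND libraries and 9.52, 17 and 27.1 in CDAHFD libraries. The diets overlapped and the CDAHFD libraries were scattered, so that the 95% interval of its log2 fold change ran from -0.95 to 0.51.

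Per kilobase of annotated exon the order of the cathepsins and legumain changed. Ctss led in ND libraries with 3950.4 ± 208 normalised counts per kilobase, ahead of Ctsd (2276 ± 104), then Ctsz (1573 ± 80.4) and Ctsb (1523 ± 79.1), which did not differ beyond their spread. In CDAHFD libraries Ctsb led with 9000.1 ± 471, ahead of Ctss (6079.7 ± 507) and Ctsd (5458 ± 159), whose levels differed by little more than the SD of Ctss. Lgmn moved from the seventh place (569.6 ± 19.6) to the fifth (2741 ± 42). Of the summed level per kilobase of the 10 genes, Ctsb made up 12.7% ± 0.143 in ND and 30.1% ± 0.253 in CDAHFD libraries. The share of Ctss went from 32.9% ± 0.53 to 20.3% ± 0.799, although its own level rose. Ctsd held 19% ± 0.393 and 18.3% ± 0.599. Exon lengths come from GENCODE M21 and count every annotated exon, so these levels depend on the isoforms listed there.

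**Figure D3:**
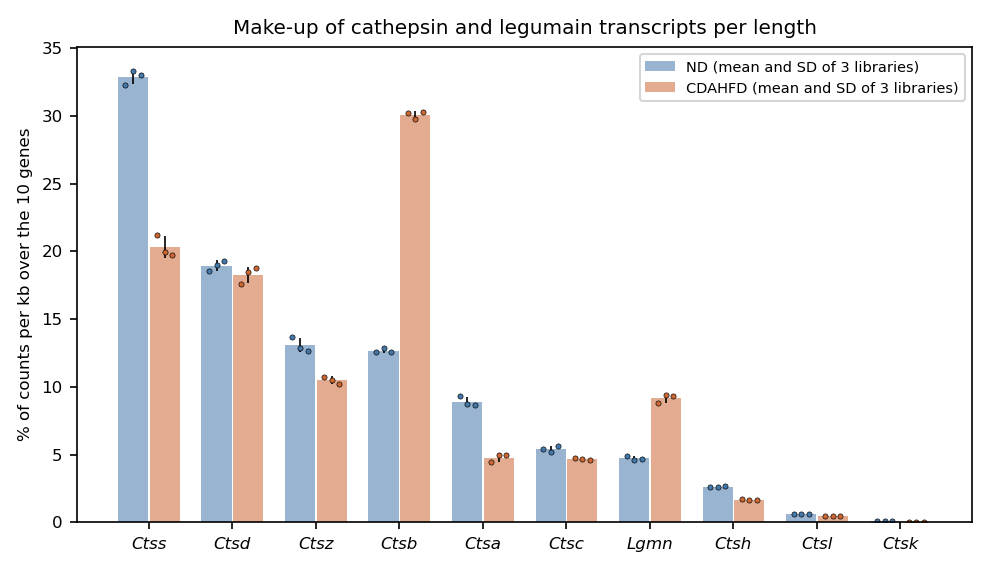
Share of each gene in the summed normalised counts per kilobase of the 10 cathepsin and legumain genes (vertical axis, percent). Bars are means of 3 libraries, error bars SD and points single libraries. Ctsb went from 12.7% to 30.1% and Lgmn from 4.75% to 9.18%, while Ctss went from 32.9% to 20.3%.

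The 21 other hydrolases and their partners gave 14 rises and 1 fall, and 6 missed the threshold, at a median log2 fold change of 0.38. Over all genes 24.6% rose and 22.5% fell. Grn (chromosome 11, 102430315 to 102437048), which encodes progranulin, a secreted and lysosomal precursor of granulin peptides, had 2321, 2428 and 2295 normalised counts in ND and 6060.3, 6359 and 6532 in CDAHFD libraries. The log2 fold change was 1.43 (SE 0.04, limma adjusted p = 2.75e-21). Asah1, acid ceramidase, had 1376, 1599 and 1574 against 3908, 3305 and 3644 normalised counts (log2 fold change 1.25, SE 0.06, limma adjusted p = 1.12e-11). Pld3, an endolysosomal exonuclease of the phospholipase D family, had 4386, 4173 and 3972 against 8897, 8899 and 9619.8 (log2 fold change 1.13, SE 0.04). In these 3 genes every CDAHFD library stood well above every ND library. Lipa, the acid lipase that frees cholesterol and fatty acids from lipoprotein esters, rose from 3355 ± 125 to 6941 ± 451. Hexa, the alpha subunit of beta-hexosaminidase, rose from 1619 ± 68 to 3240.4 ± 103.

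Psap encodes prosaposin, the precursor of saposins that present sphingolipids to their hydrolases, and was the most abundant of the 47 genes per kilobase under both diets. It had 48546, 49297 and 47099 normalised counts in ND and 84233, 77368 and 80844 in CDAHFD libraries. The diets were apart, with a log2 fold change of 0.74 (standard error 0.04, limma adjusted p = 1.08e-15). Npc2, the soluble protein that hands cholesterol to NPC1, stayed within its spread, with 10157, 10178 and 9948 against 10361, 9949 and 9607 normalised counts. The 95% interval of its log2 fold change ran from -0.10 to 0.06, and its membrane partner Npc1 rose by 0.40.

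The remaining genes of this group include enzymes of sugar chains and sulfate esters. Gaa, which degrades glycogen, rose from 1217 ± 28.7 to 2101 ± 124, and the alpha-mannosidase Man2b1 from 9146 ± 89.2 to 14539.6 ± 510.1. The heparan and dermatan sulfate enzymes Ids (1486 to 2111) and Idua (809.8 to 1054) rose, as did the sulfatide enzyme Arsa (467 to 627). Rises under 1.5-fold were also found for the sialidase Neu1 (2081 to 2394) and for Naglu (687 to 779) and Sgsh (1401 to 1540.0), both of heparan sulfate breakdown. The calls of Naglu and Sgsh lay close to the threshold, at limma adjusted p = 0.0199 and 0.0286. Naglu missed it without ND replicate 1 (limma adjusted p = 0.0792) or CDAHFD replicate 3 (0.0857). Sgsh missed it without ND replicate 1 or 3 or CDAHFD replicate 2 or 3 (limma adjusted p from 0.0658 to 0.159), and with libraries scaled to equal totals (0.0631).

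The gene that fell was Manba, beta-mannosidase, with 1055, 1039 and 947 normalised counts in ND libraries and 905, 859.9 and 801 in CDAHFD libraries. The diets did not overlap, and the log2 fold change was -0.24 (SE 0.06, limma adjusted p = 0.00185). Gusb, beta-glucuronidase, had 3039.9, 3120.3 and 3076 against 3094, 2769 and 3039 normalised counts, and its interval ran from -0.15 to 0.04. Glb1, the beta-galactosidase measured as a senescence marker, had 952, 946 and 926 against 1134, 969 and 1021 (log2 fold change 0.14, limma adjusted p = 0.0553). Smpd1, acid sphingomyelinase, was similarly placed (823 and 907, adjusted p = 0.0539). In both genes every CDAHFD library lay above every ND library without the test being passed. Each passed narrowly under some other settings, Glb1 without CDAHFD replicate 2 (limma adjusted p = 0.0194) and Smpd1 without ND replicate 1 (0.0358). Gla, alpha-galactosidase (164 and 178), and Arsb, which acts on dermatan sulfate (776 and 811), overlapped between the diets.

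**Figure D4:**
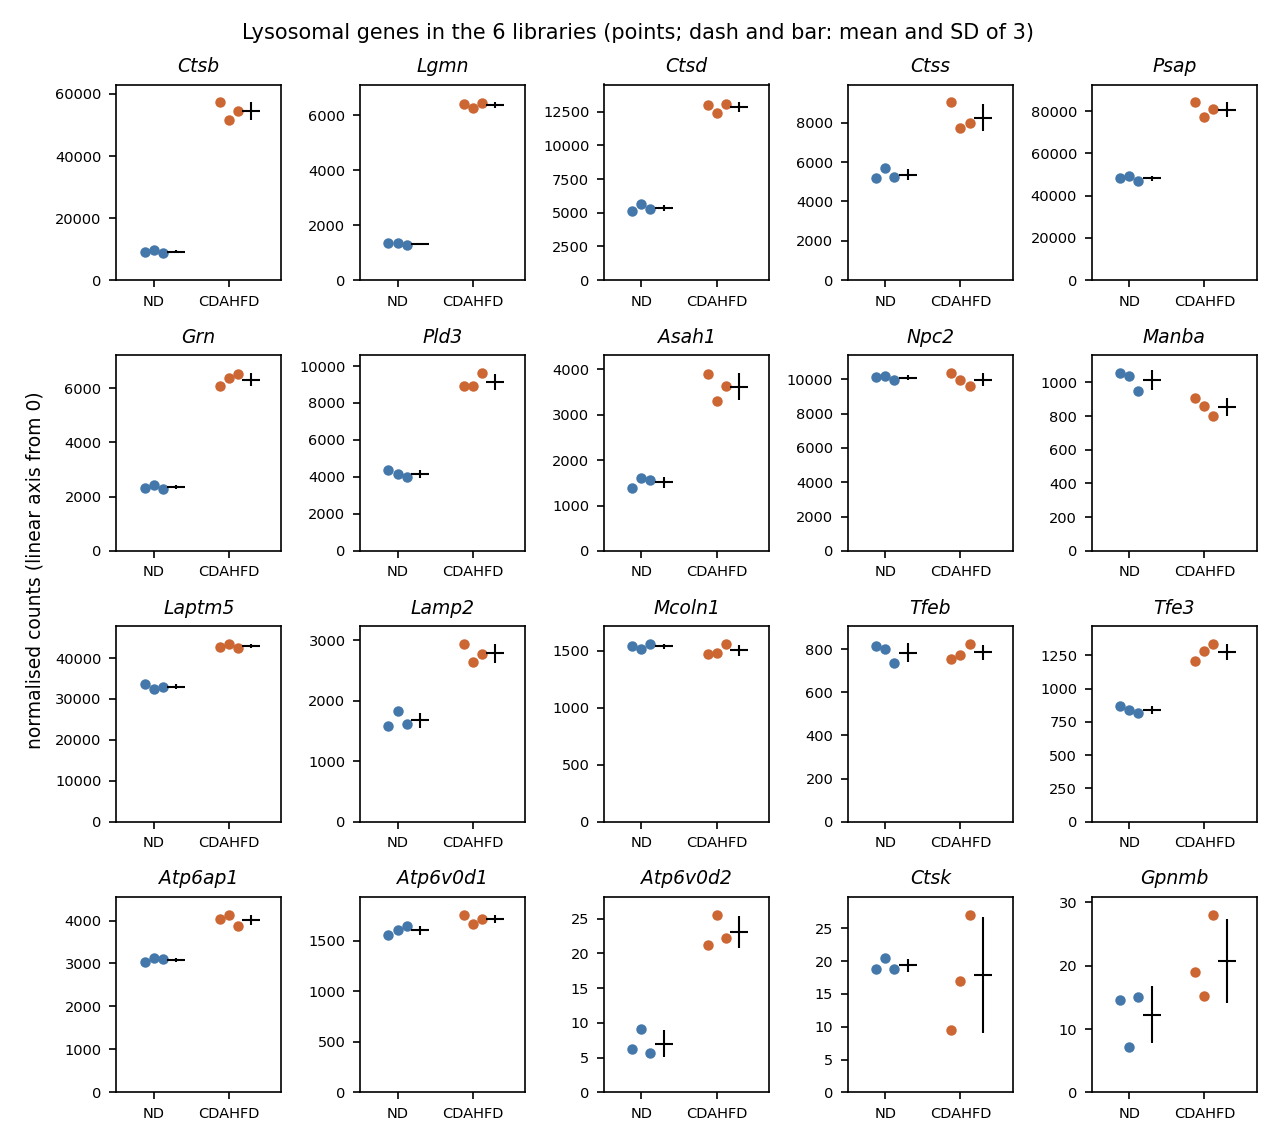
Normalised counts (vertical axes, linear from 0, scaled per gene) of 20 lysosomal genes in the 3 ND and 3 CDAHFD libraries, with mean and SD beside the points. Ctsb, Lgmn, Grn and Asah1 show 2 separate sets, Npc2, Mcoln1 and Tfeb overlap, and Ctsk, Gpnmb and Atp6v0d2 lie under 30 normalised counts.

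Lysosomal membrane proteins rose in 6 of 8 cases (24.6% of all genes rose), none by 2-fold, with a median log2 fold change of 0.54. Laptm5, a transporter-like protein of blood cells that limits T cell receptor levels, was the second most abundant of the 47 genes per kilobase. It had 33672, 32534 and 32793 normalised counts in ND libraries and 42769, 43474 and 42428 in CDAHFD libraries. The log2 fold change was 0.38 (SE 0.04, limma adjusted p = 6.52e-10). Its relative Laptm4a had 2930.4, 3006 and 2866 against 4995, 4395 and 4673 normalised counts, a log2 fold change of 0.67. Lamp2, a main glycoprotein of the lysosomal membrane and the receptor of chaperone-mediated autophagy, had 1591, 1823 and 1608 against 2943, 2639 and 2768 (log2 fold change 0.73, SE 0.05, limma adjusted p = 8.20e-12). Cd63, a tetraspanin of lytic granules and late endosomes, was low, with 123, 123 and 109 against 253, 201 and 213 (log2 fold change 0.89, SE 0.12). In all 4 genes the diets did not overlap.

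The cholesterol exporter Npc1 rose from 2226 ± 55.1 to 2939 ± 174 normalised counts and Cln3, mutated in juvenile Batten disease, from 1444 ± 77 to 1708 ± 81.2. Mcoln1, the calcium channel TRPML1, had 1539, 1513 and 1557 against 1474, 1476 and 1559 normalised counts. Its diets overlapped, and the interval of its log2 fold change ran from -0.13 to 0.07. Gpnmb, a glycoprotein of lipid-laden macrophages, was barely detected, with 14.6, 7.14 and 15.1 normalised counts in ND libraries and 19, 15.2 and 28.1 in CDAHFD libraries. The lowest CDAHFD value lay just above the highest ND value, and the test was not passed (log2 fold change 0.73, SE 0.38, limma adjusted p = 0.112).

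The transcription factors gave unlike values. Tfeb had 816, 800.0 and 734 normalised counts in ND libraries and 756, 773 and 825 in CDAHFD libraries. The diets overlapped and the interval of the log2 fold change ran from -0.13 to 0.13. Tfe3 had 872, 839.8 and 813 against 1209.5, 1280.4 and 1333, with a log2 fold change of 0.60 (standard error 0.06, limma adjusted p = 8.40e-10). The interval of Tfe3, from 0.48 to 0.72, lay apart from that of Tfeb. A further 13 genes of this family and its upstream control gave 7 rises and 0 falls (24.6% and 22.5% of all genes). Of these 13 genes 53.8% were called, not far from the 47.1% of all genes. Mitf, a relative of both factors, rose from 71.1 ± 14 to 274 ± 21.1 normalised counts. Tfec, the family member of macrophages, chosen after its value was seen, had 10.4, 39.8 and 31.1 against 327, 294 and 334 (log2 fold change 3.69, SE 0.54, limma adjusted p = 0.00504). The folliculin gene Flcn (1820.2 to 2091) and the Rag GTPases Rragd (155 to 259) and Rragc (1559 to 1766), which hold TFEB in check at the lysosome, rose.

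V-ATPase genes rose in 4 of 6 cases, or 3 of 5 without Atp6v0d2, which reached the minimum for testing only through its CDAHFD libraries (24.6% of all genes rose). The rises of those 3 were under 1.5-fold. Atp6ap1, an accessory protein needed to assemble the pump, had 3037, 3126 and 3093 normalised counts in ND and 4044, 4123 and 3883 in CDAHFD libraries. The log2 fold change was 0.38 (SE 0.04, limma adjusted p = 1.07e-08). Atp6v1b2, the nucleotide-binding B subunit, had 2454, 2489 and 2488 against 3058, 3029 and 2987 (log2 fold change 0.29, SE 0.04, limma adjusted p = 1.64e-06). The catalytic A subunit Atp6v1a went from 1781 ± 17.1 to 1924 ± 22.4 normalised counts. It passed narrowly (log2 fold change 0.11, limma adjusted p = 0.047) and failed when any one library was left out, at adjusted p from 0.0690 to 0.117. Atp6v1h, the regulatory H subunit, had 1471, 1637 and 1568 against 1611, 1439 and 1504, and the diets overlapped.

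The 2 forms of the d subunit, which joins the parts of the pump, stood at different levels. Atp6v0d1, the form of most cells, had 1559, 1603 and 1649 normalised counts in ND libraries and 1757, 1669 and 1715 in CDAHFD libraries. Every CDAHFD library was above every ND library by a small margin (log2 fold change 0.10, limma adjusted p = 0.107). Atp6v0d2, the form known from osteoclasts and macrophages, had 6.25, 9.18 and 5.66 against 21.1, 25.6 and 22.3 normalised counts. The log2 fold change was 1.60 (SE 0.38, limma adjusted p = 9.28e-04), for a gene that was tested only because of its level in the CDAHFD libraries. Per kilobase it made up 0.289% ± 0.0784 of the d subunit transcripts in ND libraries and 0.88% ± 0.11 in CDAHFD libraries, so that the common form supplied nearly all of them under both diets.

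Of 109 further lysosomal genes listed, 107 were found in the table (Cpvl and Atp6v0e2 were not matched) and 105 were tested. They rose in 63 cases and fell in 14 (24.6% and 22.5% of all genes), with a median log2 fold change of 0.20. The summed level of the 107 genes went from 198088 ± 1895 to 245526 ± 4099 normalised counts. Among proteases and cystatins 7 of 11 rose and 3 fell, and their summed level changed little, from 30611 ± 713 to 32297 ± 1092 normalised counts. The named rises were Ctsf (35.8 to 198), Tpp1 (2133 to 3221), Prcp (1135 to 1725) and the cystatin Cst7 (1205 to 1722). Of 28 glycosidases, sulfatases, lipases and nucleases 21 rose and 5 fell, and the rises included the phospholipase Pla2g15 (656 to 3824 normalised counts), the acid phosphatase Acp2 (638 to 2893) and the nuclease Dnase2a (336 to 1037).

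Of 31 further membrane proteins 17 rose and 4 fell (24.6% and 22.5% of all genes). The iron transporter of phagosomes Slc11a1 had 804, 903 and 833 normalised counts in ND libraries and 5042, 4867 and 5027 in CDAHFD libraries. Cd68, a lysosomal glycoprotein used as a macrophage marker, rose from 853 ± 46.4 to 3125 ± 150.4. Lamp1, which also marks degranulating T cells, rose from 4022 ± 82.2 to 8643 ± 353, and the channel Tpcn2 from 653 ± 11.1 to 1478 ± 16.1. Of 9 genes that sort enzymes to the lysosome 6 rose and 1 fell (24.6% and 22.5% of all genes). The sorting receptor Sort1 had 566, 613 and 539 against 4437, 4249 and 4398 normalised counts (log2 fold change 2.93, SE 0.05), while genes of the mannose 6-phosphate pathway rose by smaller steps, Gnptab (2071 to 2828), Nagpa (798 to 1198) and M6pr (5553 to 6794). The 13 further V-ATPase genes tested gave 5 rises and 1 fall, so that 46.2% were called, close to the 47.1% of all genes. Tcirg1 (2753 to 3685), Atp6v0b (1338 to 1757) and Atp6v0a1 (511 to 757) rose, and Atp6v1d fell (2609 to 2037). The median log2 fold change was 0.20 for the listed V-ATPase genes, 0.11 for them without Atp6v0d2, and 0.10 for the further V-ATPase genes.

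**Figure D5:**
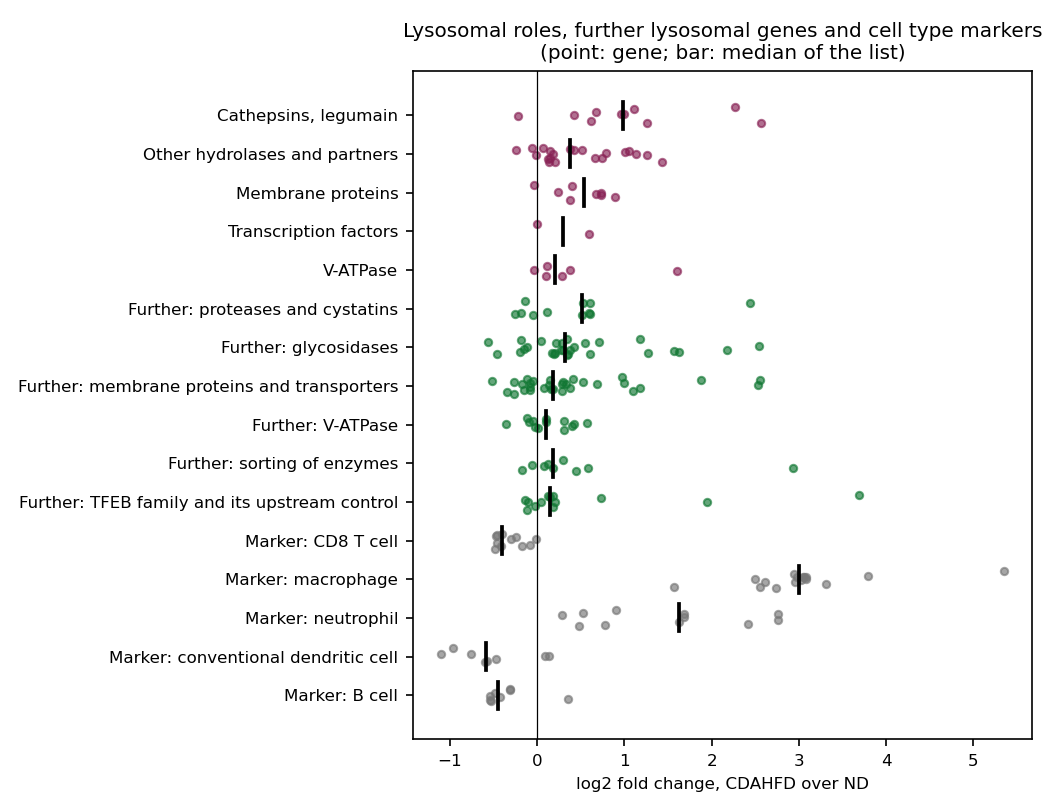
Log2 fold change (horizontal axis) of single genes (points) and list medians (bars) for the 5 roles of the 47 lysosomal genes, for further lysosomal genes and for markers of 5 cell types. Cathepsins with legumain have a median of 0.98 and V-ATPase genes of 0.20 (0.11 without Atp6v0d2). The medians are 3.00 for macrophage markers and -0.41 for CD8 T cell markers.

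Some counts are uncertain because exons overlap other annotated genes. In GENCODE M21, 15 of the 47 genes share exon bases with another gene, and 4 share over 20% of their exon length: Ctsd (34.4%, same strand), Arsb (32.3%), Ctsl (26.8%) and Sgsh (21.6%), the last 3 with a gene on the opposite strand. Ctsa shares 10.5% with Pltp on the opposite strand, whose mean was 335 under ND and 816 under CDAHFD. Ctsb, the largest rise, shares 12.8% with Fdft1 on the opposite strand, whose mean was 436 under ND and 308 under CDAHFD. Arsa (18.75%) and Hexa (12.8%) also overlap genes on the opposite strand. With the strand setting of the counting not given in the sources used here, such reads cannot be assigned to one gene.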

How the data were processed

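The file the authors deposited holds a signal per gene and library, namely reads divided by a library factor, in 6 columns and 26181 Ensembl IDs. Its genome build is mm10, per the submitters' processing notes, while aligner, counter, strand setting and annotation are not given in the sources used here. For library construction, the labels name a whole-RNA and an mRNA kit without saying which library had which. Within a tolerance of 0.001, 100% of values were whole multiples of their column's step, which gave back the reads. Columns spelled CDHFD were taken as CDAHFD. Symbols were found for 26147 IDs. Positions and exon lengths are from GENCODE M21 (the same build), promoters from RefSeq.

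The main test was limma 3.58.1 (R 4.3.3, trend and robust) on log2(normalised count + 1), a scale that understates the change of low genes, for the 15819 genes averaging 10 or more, with Benjamini-Hochberg adjustment and a threshold of 0.05. The code was tested on simulated data. On the reads, edgeR 4.0.16 (quasi-likelihood) called 7536 genes and DESeq2 1.42.0 called 6755, against 7449. Libraries of the same diet differed by more than chance in sampling reads (2.83 to 6.22 in chi-square over degrees of freedom), so none was a copy.

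Members and lists were chosen with earlier results of these data known. All 47 genes are named. The rule for values per library took, in each role, the 3 called genes with the largest change, called genes against the majority and the 2 highest per kilobase; those of other genes were added after their values were seen. Of each further lysosomal list, up to 4 called genes with the smallest adjusted p are named, except 1 that is not reported here. Marker lists are given by counts, with sums and defining genes where they bear most on the results.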

Additional observations from a re-analysis of the deposited data

How the results depend on the processing

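Of the 47 lysosomal genes 35 were called, and 32 to 36 under 16 other settings, which changed the pseudocount (0.5 or 5), the filter (none, or 50), the scaling (equal totals, TMM), the estimation or tool (limma with neither trend nor robust, edgeR, DESeq2), added a replicate block, or left out 1 library. Manba was called lower in each of these, no direction reversed, and 42 of the 47 genes kept their side of the threshold wherever tested. Atp6v1a, Sgsh and Naglu lost the call in some settings, and Glb1 and Smpd1 gained it in some; the cause was not tested. Leaving out 1 library gave 32 to 34 called lysosomal genes, 69 to 78 further lysosomal genes (77 with all) and 6573 to 7537 of all genes. Same-numbered libraries did not deviate together (correlations of 0.04, -0.05 and 0.06). With 3 libraries per diet, these values cannot exclude a weaker pairing by number. The replicate block left 34 lysosomal genes and 7250 of all genes called, and Atp6v1a lost its call (limma adjusted p = 0.0843). Low counts limit Ctsk, Gpnmb and Atp6v0d2, which the filter at 50 removed.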
